A study of Mus musculus with 11 samples.

Results

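The glycolysis and hypoxia response genes examined here are 31 genes, out of 50686 in the count tables, chosen by name as known targets of the transcription factor HIF-1 and of mTOR complex 1. They comprise 3 transporters of glucose and lactate, 8 genes of the hexose phosphate steps, 7 of the triose phosphate steps, 4 of the pyruvate and lactate steps, and 9 of the HIF pathway and its targets. The samples were bulk GL261 tumours and tumour-associated microglia (TAM-MG). GL261 is a mouse glioma cell line, which was injected into the brain of C57BL/6 mice at 6 weeks of age, 3 weeks after tamoxifen, and tissue was taken 3 weeks after injection. Control mice carried the floxed Rheb1 gene without Cre (Rheb1 fl/fl), and knockout mice also carried Cx3cr1-CreERT2, a Cre recombinase that tamoxifen switches on in cells expressing Cx3cr1, such as microglia (Cx3cr1-Rheb1 Δ/Δ). The labels call these groups WT and KO. The GL261 cells were not targeted, and Cx3cr1 is also expressed by monocytes and other myeloid cells. There were 3 Rheb1 fl/fl tumours (35, 38 and 110), 3 Cx3cr1-Rheb1 Δ/Δ tumours (26, 36 and 37), 2 libraries of Rheb1 fl/fl TAM-MG (74 and 78) and 3 of Rheb1 Δ/Δ TAM-MG (54, 63 and 65). Values below follow this order. Bulk RNA was scraped from paraffin slides of fixed tumours, while TAM-MG RNA came from live cells gated as CD11b+ CD45low.

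Glycolysis breaks glucose down to pyruvate in the cytoplasm, and lactate dehydrogenase turns pyruvate into lactate when it is not oxidised in mitochondria. HIF-1 is a transcription factor whose alpha subunit is destroyed when oxygen is plentiful and accumulates in hypoxia, where it raises the genes of glucose uptake, glycolysis, lactate export and angiogenesis. The kinase complex mTORC1, which the small GTPase Rheb activates, raises HIF-1α translation and with it many of the same genes, and glycolysis is known to increase in activated macrophages and microglia.

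Total counts ran from 14940787 to 21991348 per bulk tumour and from 20765767 to 29947977 per TAM-MG library. The summed level of 10 microglial markers ran from 212 to 398 CPM (read counts scaled to the library's total) in Rheb1 fl/fl tumours, from 28.1 to 123 CPM in Cx3cr1-Rheb1 Δ/Δ tumours and from 22830 to 43500 CPM in TAM-MG, so that the sorted cells carried their defining markers. Rheb, the targeted gene, had 348, 235 and 330 CPM in Rheb1 fl/fl tumours and 225, 126 and 146 CPM in Cx3cr1-Rheb1 Δ/Δ tumours. In TAM-MG, Rheb had 86.5 and 164 CPM in Rheb1 fl/fl and 67.8, 70.0 and 71.2 CPM in Rheb1 Δ/Δ. It was below all controls in both experiments, where reads from exons outside the floxed exon 3 can remain, by 0.88 ± 0.32 (SE) and 0.85 ± 0.34 on the log2 scale, without passing the threshold (edgeR, adjusted p = 0.426 and 0.552).

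DNA sequences upstream of the members are shown first, because the binding site of HIF-1 is short and can be read in them. The core of a hypoxia response element is the 5-base motif ACGTG. It was searched on both strands of the 250 bases before each RefSeq start site (GRCm38.p6), and a match on the reverse strand reads CACGT. The E-box CACGTG holds 1 match on each strand, so these motifs overlap. Promoters were found for 30 of the 31 members, all but Ndrg1. The motif was in at least 1 promoter of 19 of these 30 genes (63.3%), against 20.0% of 17492 protein-coding genes and 18.5% of 27025 genes of any kind. The members were named as HIF-1 targets in the first place, so these shares are a description, and a match is not a site of binding. The windows of the genes on which the comparisons turn, read 5′ to 3′ with matches in capitals, are those of Pfkfb3, Vegfa, Hk1, Hk2, Ldha, Pgk1, P4ha1 and Bnip3.
Pfkfb3, chr2:11502091-11502340, minus strand: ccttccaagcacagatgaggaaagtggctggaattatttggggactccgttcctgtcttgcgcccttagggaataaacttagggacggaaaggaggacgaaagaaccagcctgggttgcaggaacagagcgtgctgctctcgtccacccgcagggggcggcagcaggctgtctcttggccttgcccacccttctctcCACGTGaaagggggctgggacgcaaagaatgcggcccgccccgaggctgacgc
Vegfa, chr17:46032378-46032627, minus strand: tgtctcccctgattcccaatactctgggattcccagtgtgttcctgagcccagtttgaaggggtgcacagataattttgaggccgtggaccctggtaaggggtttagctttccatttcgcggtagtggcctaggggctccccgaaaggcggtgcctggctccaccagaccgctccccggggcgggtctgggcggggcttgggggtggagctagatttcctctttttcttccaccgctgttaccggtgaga
Hk1, chr10:62379909-62380158, minus strand: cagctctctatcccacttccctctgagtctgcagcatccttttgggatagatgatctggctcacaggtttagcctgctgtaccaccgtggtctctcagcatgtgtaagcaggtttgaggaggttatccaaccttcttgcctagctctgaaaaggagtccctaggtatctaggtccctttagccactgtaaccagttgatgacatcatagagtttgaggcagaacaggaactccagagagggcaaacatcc
Hk2, chr6:82774455-82774704, minus strand: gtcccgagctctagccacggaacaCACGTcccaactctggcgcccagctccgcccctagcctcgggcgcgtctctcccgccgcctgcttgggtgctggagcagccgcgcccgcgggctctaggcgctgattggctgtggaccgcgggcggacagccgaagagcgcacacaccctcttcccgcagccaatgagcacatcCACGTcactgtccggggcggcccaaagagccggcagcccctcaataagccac
Ldha, chr7:46845554-46845803, plus strand: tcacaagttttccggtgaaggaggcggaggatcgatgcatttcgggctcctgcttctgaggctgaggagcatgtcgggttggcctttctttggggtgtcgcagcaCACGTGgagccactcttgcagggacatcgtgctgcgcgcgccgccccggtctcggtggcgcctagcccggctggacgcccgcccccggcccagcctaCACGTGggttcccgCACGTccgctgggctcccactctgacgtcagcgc
Pgk1, chrX:106186850-106187099, plus strand: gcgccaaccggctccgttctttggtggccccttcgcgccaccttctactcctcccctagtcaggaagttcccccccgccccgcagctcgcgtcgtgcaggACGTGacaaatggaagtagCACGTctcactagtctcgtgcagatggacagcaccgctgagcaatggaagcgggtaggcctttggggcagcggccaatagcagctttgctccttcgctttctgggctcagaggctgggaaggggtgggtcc
P4ha1, chr10:59323046-59323295, plus strand: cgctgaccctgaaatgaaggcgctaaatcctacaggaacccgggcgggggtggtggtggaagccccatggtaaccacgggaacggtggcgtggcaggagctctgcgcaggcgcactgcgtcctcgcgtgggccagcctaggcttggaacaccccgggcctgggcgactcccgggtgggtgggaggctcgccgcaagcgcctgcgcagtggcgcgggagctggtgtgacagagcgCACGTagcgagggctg
Bnip3, chr7:138909507-138909756, minus strand: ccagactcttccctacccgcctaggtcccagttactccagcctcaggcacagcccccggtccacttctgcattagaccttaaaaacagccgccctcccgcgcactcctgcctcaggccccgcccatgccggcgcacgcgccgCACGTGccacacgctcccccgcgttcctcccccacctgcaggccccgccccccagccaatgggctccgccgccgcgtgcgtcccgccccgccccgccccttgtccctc
Ldha held 5 matches, including both strands of 2 E-boxes, and Pgk1 held 2 separate matches. The Pfkfb3 and Bnip3 sequences held 1 E-box each, Hk2 held 2 matches on the reverse strand, and P4ha1 held 1 match, which starts 16 bases before the start site. The motif letters were not in the Vegfa and Hk1 windows shown. Ldha, Pfkfb3 and Hk1 each have another RefSeq start, not printed, whose windows hold 0, 1 and 0 matches. Vegfa has another RefSeq start whose window, not printed, holds 1 match. That window (chr17:46025164-46025413) lies downstream of the start shown, inside the gene, and Vegfa is counted among the 19 genes on that match alone.

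In bulk tumours the question was whether loss of Rheb1 in Cx3cr1-expressing cells altered glycolysis and hypoxia genes in the tumour as a whole. Vegfa, the angiogenic growth factor, was the member with the smallest p-value and was lower in the knockout tumours. Most glycolytic enzymes lay within the spread of the replicates. None of the 31 members passed an adjusted p of 0.05 with a change of at least 1.5-fold in edgeR's quasi-likelihood test, and neither did any of the 17028 genes tested (0% called). The likelihood ratio test called 0 members as well, against 0.722% of genes higher and 1.53% lower, and so did DESeq2, against 2.78% of genes. At an unadjusted p under 0.05, 1 member was lower (5.19% of all genes) and 0 were higher (3.82%). On counts, the groups did not overlap for 3 members with lower levels in Cx3cr1-Rheb1 Δ/Δ, against 9.23% of all genes, and for 1 with higher levels, against 7.82%. The median log2 fold change was -0.36 over the members and 0.0034 over all genes, with 13 members above 0, against 50.2% of genes. In a bulk tumour, fewer cells of a type and less RNA per cell cannot be told apart, and the microglial marker sums given above differed between the genotypes.

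**Figure D1:**
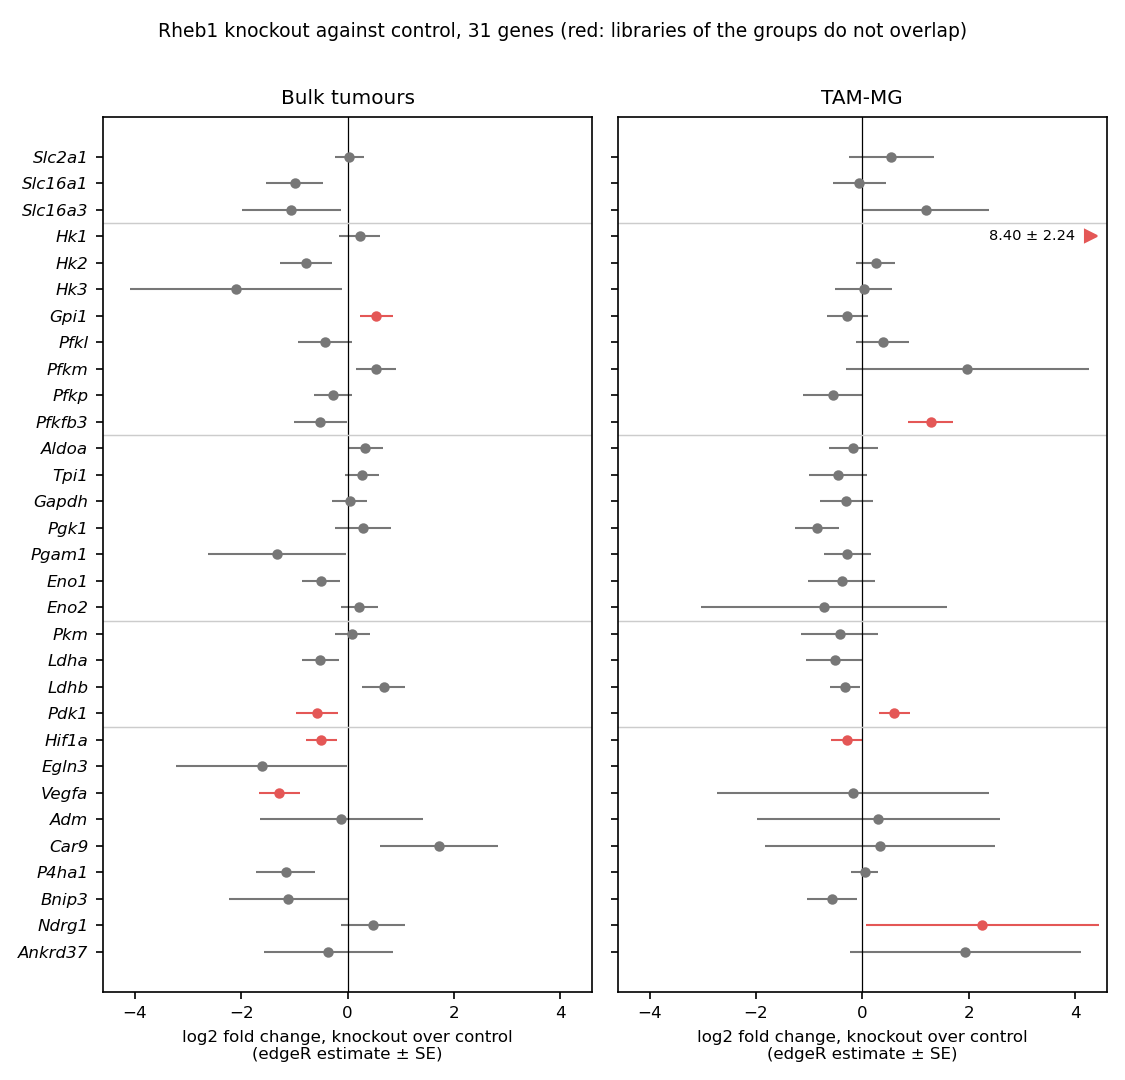
Log2 fold change of Rheb1 knockout over control, with its standard error, for the 31 genes in bulk tumours (left, 3 against 3 libraries) and TAM-MG (right, 3 against 2). Red points mark genes whose libraries do not overlap between the groups; Egln3 was not tested in TAM-MG, Hk1 lies beyond the axis there at 8.40 ± 2.24, and no gene passed the adjusted threshold.

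Among the transporters, Slc2a1 encodes GLUT1, the main glucose carrier of brain and tumour cells. It had 190, 260 and 191 CPM in Rheb1 fl/fl and 219, 216 and 221 CPM in Cx3cr1-Rheb1 Δ/Δ tumours. These groups overlapped, with a log2 fold change of 0.032 ± 0.27. Slc16a1, which encodes the lactate carrier MCT1, had 78.5, 39.4 and 31.8 CPM in control and 14.2, 35.4 and 25.6 CPM in knockout tumours, and Slc16a3, which encodes the lactate exporter MCT4, ranged from 4.43 to 54.7 CPM over the 6 tumours. Both had log2 fold changes near -1 (-0.99 ± 0.53 and -1.06 ± 0.93), with adjusted p-values of 0.634 and 0.793 in edgeR.

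The hexokinases trap glucose in the cell by phosphorylation. Hk2, the inducible isoenzyme, had 73.8, 158 and 76.0 CPM in Rheb1 fl/fl and 26.2, 89.7 and 62.2 CPM in Cx3cr1-Rheb1 Δ/Δ tumours (log2 fold change -0.79 ± 0.49, edgeR adjusted p = 0.681), and the groups overlapped. Hk3, an isoenzyme of myeloid cells, had 20.1, 1.53 and 5.99 CPM in control tumours, while it had no counts in knockout tumours 26 and 36 and 6.39 CPM in tumour 37. Gpi1 encodes glucose-6-phosphate isomerase, the next enzyme. It had 307, 291 and 177 CPM in control and 321, 352 and 451 CPM in knockout tumours, which makes it the only member that was higher in all knockout tumours (0.54 ± 0.31, edgeR adjusted p = 0.656). The phosphofructokinase genes Pfkl, Pfkm and Pfkp, whose enzyme commits sugar to glycolysis, and Pfkfb3, which makes the allosteric activator of that enzyme, overlapped between the genotypes with log2 fold changes from -0.51 to 0.53.

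In the triose phosphate steps, Aldoa (aldolase), Tpi1 (triose phosphate isomerase), Gapdh and Pgk1 (phosphoglycerate kinase) had log2 fold changes from 0.036 to 0.33, and all overlapped. Eno2, the enolase of neurons, differed by 0.22 ± 0.34, and Pgam1 (phosphoglycerate mutase) was low and uneven on counts, between 1.31 and 22.5 CPM. In TPM Pgam1 was neither, at 302 to 329 in control and 204 to 297 in knockout tumours, which did not overlap. Gapdh had 507, 712 and 337 CPM in Rheb1 fl/fl and 590, 469 and 536 CPM in Cx3cr1-Rheb1 Δ/Δ tumours. Eno1, the widely expressed enolase, had 399, 230 and 189 CPM against 137, 201 and 240 CPM (-0.50 ± 0.36). Tumour 35 was the high sample of Eno1 on counts, and the other 5 lay between 137 and 240 CPM. In TPM the Eno1 groups did not overlap, at 661 to 794 in control and 415 to 581 in knockout tumours. The share of all genes whose groups did not overlap in TPM was not counted. Pkm (pyruvate kinase) differed by 0.088 ± 0.32, Ldha, whose subunit favours lactate production, by -0.51 ± 0.34, and Ldhb, whose subunit favours its use, by 0.68 ± 0.40. For Ldhb, knockout tumours 26 and 36 were high, at 275 and 412 CPM, and tumour 37 was below all 3 controls, at 126 CPM against 149 to 190 CPM.

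Pdk1 encodes a kinase that shuts pyruvate out of mitochondrial oxidation. It had 56.8, 40.9 and 56.6 CPM in Rheb1 fl/fl and 34.6, 33.8 and 35.1 CPM in Cx3cr1-Rheb1 Δ/Δ tumours. The 3 knockout tumours lay within 2 CPM of each other and below all controls, but the difference of -0.58 ± 0.39 did not pass (edgeR adjusted p = 0.713). In TPM the Pdk1 groups overlapped, at 3.21 to 7.62 in control and 1.58 to 4.64 in knockout tumours.

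Vegfa had 57.1, 125 and 97.1 CPM in Rheb1 fl/fl tumours and 35.9, 36.5 and 42.1 CPM in Cx3cr1-Rheb1 Δ/Δ tumours. The lowest control was above the highest knockout tumour. The log2 fold change was -1.29 ± 0.39 (edgeR adjusted p = 0.280), and the adjusted p was 0.101 with the likelihood ratio test and 0.0712 with DESeq2. On log2(TPM + 1) the difference was -0.41, with control tumour 38, the highest by counts, at 3.96 TPM and the other controls at 6.25 and 14.6 TPM, so that the deposited units did not rank the tumours alike. The summed level of 8 endothelial markers, a cell type on which VEGF acts, was 79.6 to 128 CPM in control and 49.2 to 130 CPM in knockout tumours, and that of 8 monocyte and macrophage markers was 473 to 870 CPM against 155 to 256 CPM. The part of these cells in the level of Vegfa was not tested.

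Hif1a, the oxygen-sensitive subunit of HIF-1, had 203, 183 and 268 CPM in Rheb1 fl/fl and 174, 126 and 164 CPM in Cx3cr1-Rheb1 Δ/Δ tumours. These counts did not overlap, and the difference was -0.49 ± 0.30 (edgeR adjusted p = 0.669). On log2(TPM + 1) its direction was reversed, at 1.15, with control tumour 38 listed at 0.404 TPM against 9.82 to 21.9 TPM in the other 5 tumours. P4ha1, which encodes a collagen prolyl hydroxylase, had 64.4, 89.4 and 41.3 CPM in control and 10.8, 28 and 48 CPM in knockout tumours (-1.17 ± 0.56, edgeR adjusted p = 0.581). Adm (adrenomedullin, a vasodilator peptide), Egln3 (a prolyl hydroxylase that marks HIF-α for destruction), Ankrd37 and Bnip3 (a mitophagy receptor) were under 13 CPM in all 6 tumours. Car9, the hypoxia-induced carbonic anhydrase, ranged from 0.687 to 22.3 CPM, and Ndrg1 from 20.8 to 101 CPM. None of these 6 genes separated the genotypes.

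**Figure D2:**
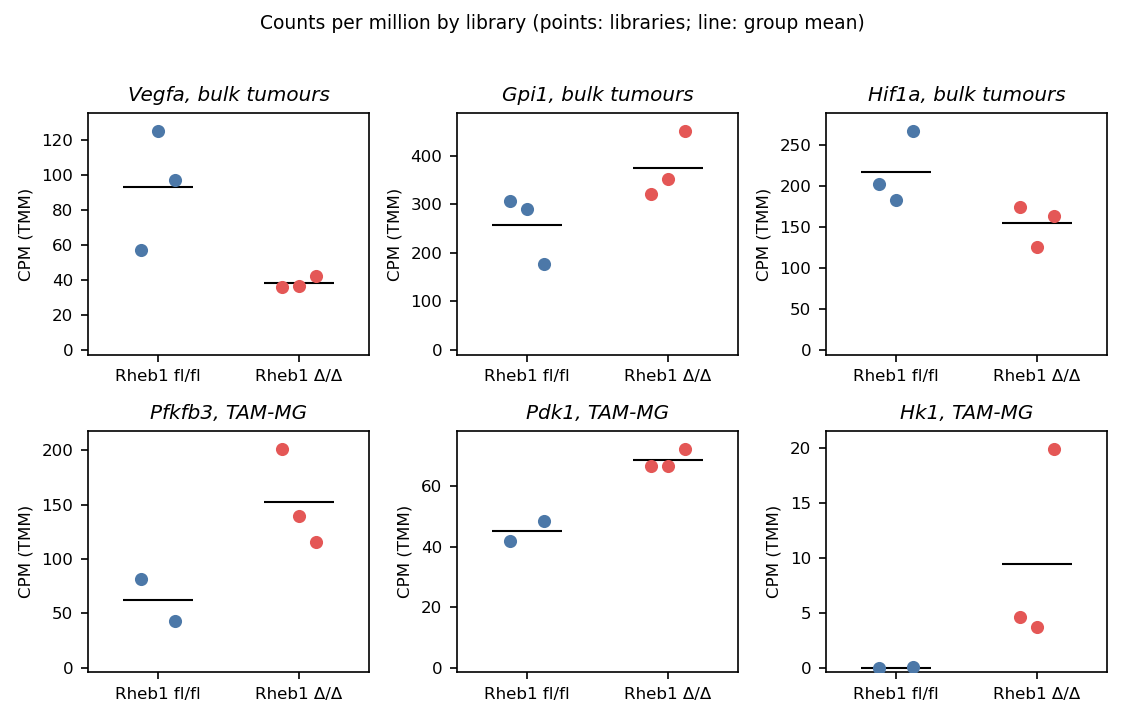
CPM on the TMM scale of each library for Vegfa, Gpi1 and Hif1a in bulk tumours (top) and Pfkfb3, Pdk1 and Hk1 in TAM-MG (bottom), all axes starting at 0. Points are libraries and lines are group means; the groups do not overlap in any panel, and Hk1 has 0 and 1 counts in the Rheb1 fl/fl TAM-MG libraries.

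In TAM-MG the comparison asks how the same genes stood in the cells that lost Rheb1. Hk1, Pfkfb3, Pdk1 and Ndrg1 were higher in all Rheb1 Δ/Δ libraries than in both controls and Hif1a was lower, numbers of genes near or under the share of all genes. For Aldoa, Tpi1, Gapdh, Pgk1, Pgam1, Eno1, Pkm and Ldha, knockout libraries 63 and 65 were below both controls and library 54 was not. The share of all genes with this order of libraries was not counted, so it cannot be called particular to these genes. None of the 30 members that passed the filter on low counts passed in edgeR's quasi-likelihood test, nor did any of the 14872 genes tested (0% called). The likelihood ratio test and DESeq2 each called 1 member, Hk1, where the former called 1.18% of genes higher and 0.471% lower and DESeq2 called 3.21%. At an unadjusted p under 0.05, 2 members were higher (5.47% of all genes) and 0 were lower (2.3%). The groups did not overlap for 4 members that were higher in Rheb1 Δ/Δ, against 14.6% of all genes, and for 1 that was lower, against 11.5%. The median log2 fold change of the members was -0.11, with 14 members above 0 (53.5% of all genes), and that of all genes was 0.081.

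Hk1, the hexokinase of brain and most resting tissues, had 0 and 1 counts in Rheb1 fl/fl TAM-MG and 104, 97 and 489 counts in Rheb1 Δ/Δ TAM-MG. These are 0 and 0.0517 CPM against 4.64, 3.72 and 20.0 CPM. Hk1 was thus all but undetected in both control libraries and present at low levels in all 3 knockout libraries. The ratio of the summed counts per total count was 478, with an exact 95% interval from 85.6 to 18900 that covers counting error only. The fitted log2 fold change of 8.40 ± 2.24 depends on the prior count, since a single count stands for the control group. Its adjusted p was 0.502 in edgeR's quasi-likelihood test, 0.032 in the likelihood ratio test and 0.000944 in DESeq2. The summed level of 8 neuronal markers, a cell type rich in Hk1, was 36.3 and 20.8 CPM in control and 17.6 to 31.1 CPM in knockout TAM-MG, and that of 8 astrocyte markers was 240 and 427 CPM against 302 to 413 CPM. Of the 8 astrocyte markers, 4 had log2 fold changes above 0 and 4 below 0, with a median of -0.084. The groups did not overlap for 1 marker that was higher in Rheb1 Δ/Δ and for 1 that was lower. Aqp4, the water channel of astrocytes, had 0 and 0 counts in control and 112, 20 and 71 counts in knockout TAM-MG, and its genotype effect also differed between the experiments (10.90 ± 1.79, edgeR adjusted p = 0.047), a gene named after its values were seen. All 8 markers had counts in each knockout library, against 5 and 6 in the controls, and 16383 to 16961 genes had counts in knockout libraries against 15012 and 15453 in controls. The part of astrocyte RNA and of gene detection in the Hk1 difference was not tested.

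Hk1 was also the 1 member of 31 for which the genotype effect differed between TAM-MG and bulk tumours, by 8.35 ± 1.43 on the log2 scale in the joint fit (edgeR adjusted p = 0.047, against 0.225% of 21342 genes called). The joint fit estimates the spread of each gene over fixed tissue and sorted cells together. In 8 of the 11 fits that left out 1 library, the edgeR adjusted p for Hk1 was at or over 0.05, up to 0.146. Pfkfb3 differed by 1.84 ± 0.62 and Pdk1 by 1.21 ± 0.51 between the experiments, without passing (edgeR adjusted p = 0.298 and 0.378).

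Pfkfb3 had 81.8 and 43.4 CPM in Rheb1 fl/fl and 202, 140 and 116 CPM in Rheb1 Δ/Δ TAM-MG. All knockout libraries were above both controls, by 1.28 ± 0.42 on the log2 scale (edgeR adjusted p = 0.519). Pdk1 had 41.8 and 48.6 CPM in control and 66.7, 66.8 and 72.4 CPM in knockout TAM-MG. It too was higher in every knockout library (0.60 ± 0.30, edgeR adjusted p = 0.596). Hk2 and Hk3 overlapped between the genotypes, with differences of 0.25 ± 0.37 and 0.032 ± 0.54. Ndrg1, a stress-response gene induced by hypoxia, had 56 and 0 counts in control and 61, 71 and 176 counts in knockout libraries, and Hif1a had 104 and 107 CPM against 103, 89.7 and 66.1 CPM (-0.28 ± 0.30). For Hif1a knockout library 54 lay within 1 CPM of control library 74, and for Ndrg1 the counts are too few for a fold change to be read.

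In lower glycolysis the 3 knockout libraries were far apart. Gapdh had 406 and 560 CPM in Rheb1 fl/fl TAM-MG and 662, 244 and 269 CPM in Rheb1 Δ/Δ TAM-MG. Pkm had 544 and 959 CPM against 1136, 297 and 247 CPM. Eno1 had 725 and 944 CPM against 1215, 305 and 390 CPM, and Ldha had 615 and 1027 CPM against 986, 353 and 377 CPM. Knockout library 54 was above both controls for Gapdh, Pkm and Eno1 and between them for Ldha, and knockout libraries 63 and 65 were below both. Aldoa, Tpi1, Pgk1 and Pgam1 had the same 2 knockout libraries lowest. Gpi1 and Bnip3 did too, with 236 and 315 CPM in control against 329, 198 and 153 CPM in knockout TAM-MG for Gpi1. Ldhb had the same order in a narrower range, with 936 and 1424 CPM against 1006, 912 and 901 CPM, whereas Pfkl had 95.2 and 194 CPM against 291, 153 and 125 CPM, with libraries 63 and 65 between the controls. Neither passed.

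**Figure D3:**
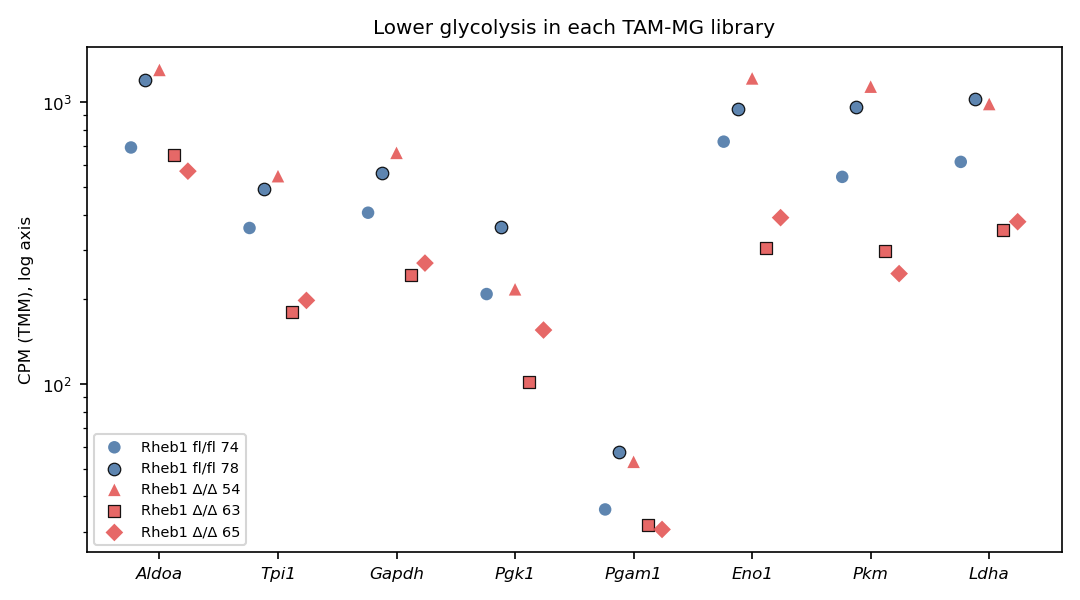
CPM on the TMM scale (log axis) of 8 genes of lower glycolysis in each of the 5 TAM-MG libraries, Rheb1 fl/fl in blue and Rheb1 Δ/Δ in red. Knockout libraries 63 and 65 lie below both controls for all 8 genes, and knockout library 54 lies above both for Aldoa, Tpi1, Gapdh, Eno1 and Pkm. The share of all genes with this order was not counted.

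All 7 triose phosphate genes had log2 fold changes below 0 in TAM-MG, with a median of -0.39, but none passed; the smallest adjusted p was 0.586 (edgeR, Pgk1, -0.85 ± 0.41). Without knockout library 54, the differences of Pkm, Eno1, Tpi1 and Ldha were -1.46, -1.26, -1.17 and -1.16. In that fit 21 of the 30 members were below 0, their median was -0.44, and the lowest edgeR adjusted p of any member was 0.306. The share of all genes below 0 and their median were not computed for that fit, so the member values have no background beside them. The summed level of 8 monocyte and macrophage markers was 697 and 1695 CPM in the control libraries, 1239 CPM in knockout library 54, and 547 and 516 CPM in knockout libraries 63 and 65. Its part in the pattern was not tested. Slc2a1 also had its highest value in library 54, with 162 and 136 CPM in control and 469, 90.7 and 93.8 CPM in knockout TAM-MG. The lactate carriers Slc16a1 and Slc16a3 overlapped, at 18.3 to 41.0 CPM and 1.25 to 21.9 CPM over the 5 libraries.

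Vegfa was near the limit of detection in TAM-MG, with 0 and 27 counts in control and 12, 0 and 32 counts in knockout libraries. Adm, Car9, Ankrd37, Eno2 and Pfkm each had a library at 3 counts or fewer beside others of over 100 counts, and their standard errors were 2.16 or more on the log2 scale. Egln3 had 259 counts in control library 78 and none in the other 4, and was not tested. P4ha1 was even across the libraries, with 173 and 171 CPM in control and 151, 208 and 175 CPM in knockout TAM-MG (0.046 ± 0.26).

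The levels in TAM-MG were then set against those in bulk tumours, in a joint fit of all 11 libraries with CPM on 1 scale. Cell type and RNA source (sorted cells or fixed tissue) cannot be told apart here. The summed level of 10 genes listed as markers of dissociation stress ran from 436 to 867 CPM in bulk tumours. In TAM-MG it was 20150 and 6336 CPM in control and 12760 to 15430 CPM in knockout libraries. Its part in the differences was not tested. Of the 31 members, 12 were higher in TAM-MG, against 20.5% of 21342 genes tested, and 6 were lower, against 32.4% (edgeR, same threshold). The median difference was 0.58 over the members and -0.89 over all genes. The members' median was 0.015 without TMM, -0.40 on TPM and -0.061 without TAM-MG knockout library 54. The median of all genes was not computed in these settings, so whether the gap between members and all genes changed is not known. The isoenzymes of a single step often went opposite ways, with Hk2, Hk3, Pfkl and Eno1 higher in TAM-MG and Hk1, Pfkm, Pfkp and Eno2 lower.

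**Figure D4:**
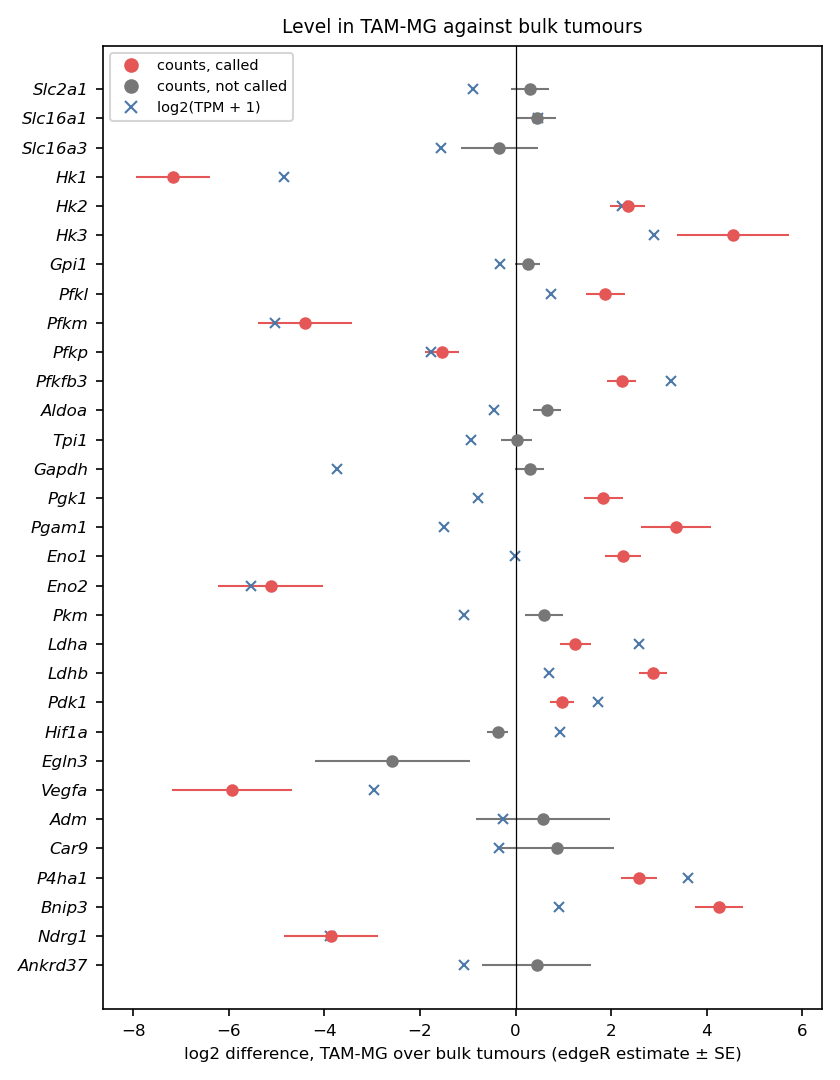
Log2 difference of TAM-MG (5 libraries) over bulk tumours (6 libraries) for the 31 genes, as the edgeR estimate with its standard error from counts (circles, red where called) and as the limma estimate from log2(TPM + 1) (crosses; Egln3 has none). The 6 genes called lower on counts, Hk1, Pfkm, Pfkp, Eno2, Vegfa and Ndrg1, lie below 0 in both units. Of the 30 genes with both values, 13 lie on opposite sides of 0, among them Gapdh, Pgk1 and Pgam1.

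Of the hexokinases, Hk1 ran from 51.9 to 139 CPM in bulk tumours (median 87.1) and had 0, 0.0641, 5.80, 4.75 and 25.1 CPM in TAM-MG (log2 difference -7.17 ± 0.78, edgeR adjusted p = 3.99e-05). Hk2 ran from 22.1 to 132 CPM in bulk tumours (median 61.6) and had 186, 411, 328, 411 and 360 CPM in TAM-MG (2.35 ± 0.37, edgeR adjusted p = 0.000439). Hk3 ran from 0 to 16.5 CPM in bulk tumours and from 40.0 to 139 CPM in TAM-MG (4.55 ± 1.18). No TAM-MG library overlapped the tumours for any of the 3. Per exonic kilobase, Hk1 made up 29.4 to 72.2% of hexokinase counts in bulk tumours and 0 to 3.98% in TAM-MG, where Hk2 made up 58.5 to 81.3% and Hk3 14.7 to 41.5%.

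Of the phosphofructokinases, Pfkl, the liver type, ran from 19.6 to 97.8 CPM in bulk tumours and had 113, 241, 363, 194 and 157 CPM in TAM-MG (1.88 ± 0.41, edgeR adjusted p = 0.00329). Pfkm, the muscle type, ran from 67.3 to 195 CPM in bulk tumours and from 0 to 18.6 CPM in TAM-MG (-4.41 ± 0.99). Pfkp, the platelet type, ran from 82.4 to 182 CPM against 26.6 to 78.5 CPM (-1.54 ± 0.36). Pfkl thus made up 7.29 to 27.0% of the family per exonic kilobase in bulk tumours and 79.1 to 91.0% in TAM-MG, and its share in TPM was 7.28 to 30.2% against 58.1 to 83.0%. Pfkfb3 ran from 14.9 to 42.0 CPM in bulk tumours and from 53.8 to 252 CPM in TAM-MG (2.22 ± 0.31, edgeR adjusted p = 0.000197), with no overlap.

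Eno2 ran from 118 to 269 CPM in bulk tumours and from 0 to 12.9 CPM in TAM-MG (-5.12 ± 1.10), and Eno1 made up at least 98.4% of enolase counts per exonic kilobase in each TAM-MG library against 35.4 to 65.7% in bulk tumours. The share of Eno1 in bulk tumours depended on the unit, and was 76.0 to 94.4% in TPM. Ldhb ran from 105 to 345 CPM in bulk tumours and had 1109, 1767, 1257, 1163 and 1134 CPM in TAM-MG (2.87 ± 0.30, edgeR adjusted p = 2.69e-05), while Ldha ran from 203 to 530 CPM against 450 to 1274 CPM (1.26 ± 0.33, edgeR adjusted p = 0.00934). The Ldha groups overlapped through knockout libraries 63 and 65. Ldhb was 68.3 to 84.5% of lactate dehydrogenase counts per exonic kilobase in TAM-MG and 32.6 to 78.2% in bulk tumours, but 65.7 to 83.5% and 65.2 to 99.9% in TPM, so that the shares of this family did not part the sample types in that unit. The summed level of the 8 neuronal markers was 1139 to 3181 CPM in bulk tumours and 17.6 to 36.3 CPM in TAM-MG.

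**Figure D5:**
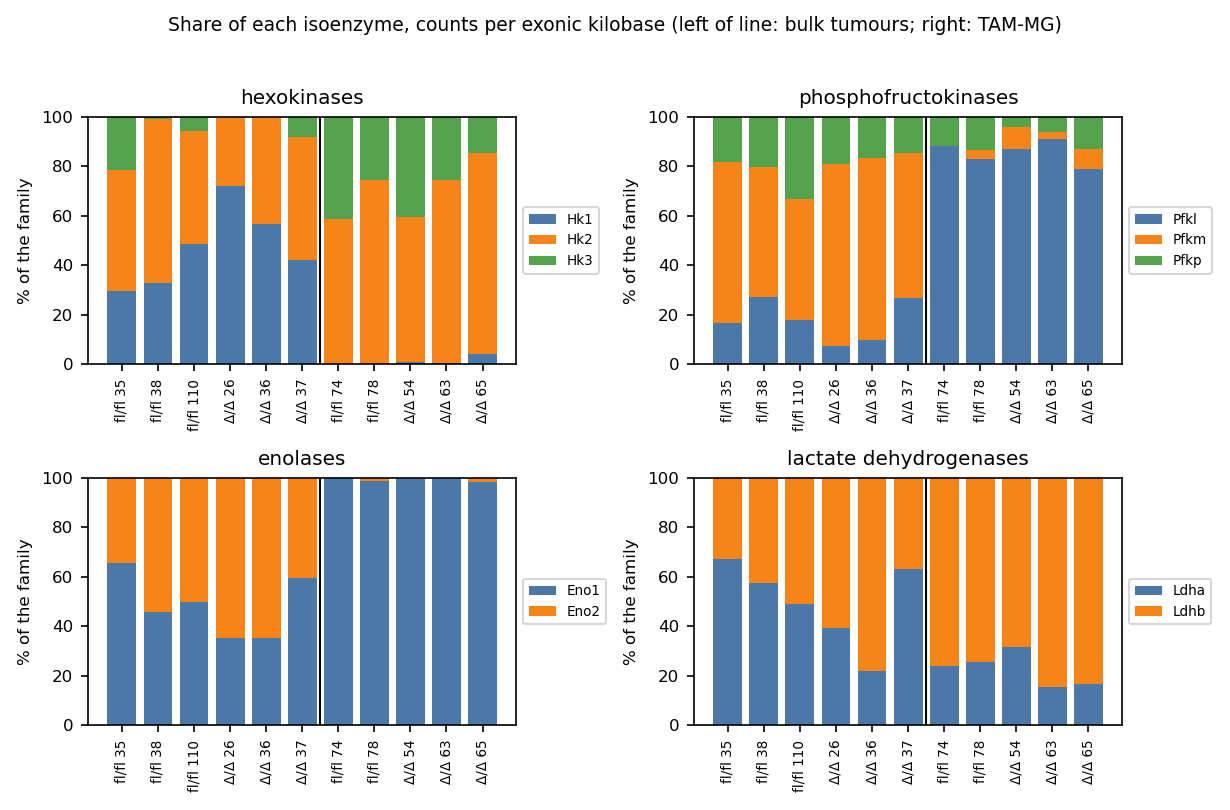
Share of each isoenzyme in its family in every library, from counts per exonic kilobase (stacked bars, percent of the family), for hexokinases, phosphofructokinases, enolases and lactate dehydrogenases. Bulk tumours are left of the line and TAM-MG right of it; Pfkl is 7.29 to 27.0% of its family in bulk tumours and 79.1 to 91.0% in TAM-MG.

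The HIF targets did not move as a block. Vegfa ran from 30.2 to 104 CPM in bulk tumours and had 0, 1.73, 0.669, 0 and 1.64 CPM in TAM-MG (-5.94 ± 1.25, edgeR adjusted p = 0.0027), and Ndrg1 ran from 17.3 to 84.9 CPM against 0 to 9.04 CPM (-3.86 ± 0.98). Bnip3 went the other way, from 2.03 to 10.4 CPM in bulk tumours to 72.4, 152, 112, 68.6 and 54.1 CPM in TAM-MG (4.26 ± 0.50, edgeR adjusted p = 6.34e-05), as did P4ha1, from 9.08 to 74.5 CPM to 188 to 265 CPM (2.59 ± 0.37), and Pdk1 (0.98 ± 0.25). Hif1a itself overlapped between the sample types, at 105 to 221 CPM in bulk tumours and 83.2 to 132 CPM in TAM-MG (-0.37 ± 0.23, edgeR adjusted p = 0.179). Slc2a1, Slc16a1, Slc16a3, Gpi1, Aldoa, Tpi1, Gapdh, Pkm, Adm, Car9, Egln3 and Ankrd37 also did not pass.

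Some of these differences depended on the deposited unit. On log2(TPM + 1), 13 of the 18 called members were called in the same direction, Pfkl, Eno1 and Ldha were not called, and Pgk1 and Pgam1 were called lower instead of higher in TAM-MG (-0.78 and -1.49, against 1.84 and 3.35 on counts). A further 3 members were called on TPM alone. Of the 30 members with both values, 13 had opposite signs in the units. Gapdh ran from 5577 to 7702 TPM in bulk tumours and from 495 to 1098 TPM in TAM-MG (-3.73), while its counts differed by 0.30 ± 0.31. Of the members, 11 have at least 1 near-identical copy elsewhere in the genome (95% identity over 150 bases), and Gapdh has 80, of which 75 are annotated as pseudogenes. TPM per CPM, here with CPM by the library's total alone, was 7.68 times as high in bulk tumours as in TAM-MG for Gapdh. This ratio was 12.2 for Pgam1, 4.45 for Bnip3 and 2.94 for Pgk1, where 7025 genes had a median of 0.648 and a 95th percentile of 1.93. Ldhb, Eno1 and Hk3 were also above that percentile, and Hk3 has no such copy. Reads that match several places can be shared out by an estimator of transcripts and dropped by a counter of genes. The part of such reads was not tested, and the levels of these 7 genes across sample types are uncertain.

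The exons of 14 members overlap a gene on the opposite strand. Gm45507, antisense to Bnip3, had no counts in any bulk tumour and 569 to 1476 counts in TAM-MG libraries, and Gm12868, antisense to Slc2a1, had 2 counts in all bulk tumours and 267 to 1775 counts per TAM-MG library. Antisense genes took 0.312 to 0.395% of counts in bulk tumours and 0.885 to 1.06% in TAM-MG. The sources used here do not give the strand setting of the counts, so reads of Bnip3 or Slc2a1 and of their antisense partners cannot be told apart. In bulk tumours some TPM values stood against the counts. Ldha was listed at 10.6 TPM in tumour 35 and 0.225 TPM in tumour 37, which had 11627 and 8722 counts, and P4ha1 was listed at 0 TPM in tumour 35, which had 1159 counts.

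Other genes of the same pathways were described from 5 further lists. In bulk tumours, 0 of the 13 tested other glycolysis genes, 0 of 13 genes of pyruvate entry to mitochondria, 0 of 7 pentose phosphate genes, 0 of 12 HIF subunits and degradation genes and 0 of 25 other HIF targets were called by edgeR. At an unadjusted p under 0.05, 1 other glycolysis gene was lower, 2 genes of the HIF subunits and degradation were higher, and of the other HIF targets 1 was higher and 1 lower, where 3.82% of all genes were higher and 5.19% lower. The 2 of 12 HIF subunits and degradation genes were above that share. In that list 9 genes were above 0 and 3 below (50.2% of all genes above), with a median of 0.57. Its groups did not overlap for 4 genes that were higher (7.82% of all genes) and 0 that were lower (9.23%). Angptl4, a secreted inhibitor of lipoprotein lipase induced by hypoxia, had the smallest p-value of these lists. It had 26.7, 15.4 and 29.8 CPM in Rheb1 fl/fl and 0.987, 0.895 and 0.523 CPM in Cx3cr1-Rheb1 Δ/Δ tumours, so that every control was over 15 CPM and every knockout tumour under 1 CPM. The log2 fold change was -4.89 ± 0.93 (edgeR adjusted p = 0.154), and the likelihood ratio test called it (adjusted p = 0.000249). Slc16a7, the lactate carrier MCT2, was lower in all knockout tumours (-2.48 ± 0.91, edgeR adjusted p = 0.425), as were Pdp2, a pyruvate dehydrogenase phosphatase (-1.11 ± 0.64), and Rpia of the pentose phosphate pathway (-0.51 ± 0.46). Egln2, a HIF prolyl hydroxylase, was higher in all of them, at 111, 80.3 and 110 CPM against 50.1, 18.6 and 69.7 CPM (1.12 ± 0.47, edgeR adjusted p = 0.496).

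In TAM-MG, edgeR called 0 of 14, 12, 7, 11 and 24 tested genes of the same lists, in that order. At an unadjusted p under 0.05, 1 gene of pyruvate entry was higher and 1 lower, 1 of the HIF subunits and degradation was lower and 1 other HIF target was higher, where 5.47% of all genes were higher and 2.3% lower. Pcx encodes pyruvate carboxylase, which feeds pyruvate into the citric acid cycle as oxaloacetate. It had no counts in either Rheb1 fl/fl library and 324, 142 and 497 counts in Rheb1 Δ/Δ libraries. The deposited TPM were not 0 in the controls, at 1.07 and 1.92 TPM against 11.85, 5.10 and 11.5 TPM, so that both units placed all knockout libraries higher but the size of the difference depended on the unit. Its adjusted p was 0.502 in edgeR's quasi-likelihood test, and the likelihood ratio test called it (adjusted p = 0.00086). The genotype effect on Pcx also differed between the experiments (edgeR adjusted p = 0.047, at or over 0.05 in 9 of the 11 fits without 1 library). Elob, an adaptor of the ubiquitin ligase that destroys HIF-α, had 179 and 214 CPM in control and 140, 106 and 112 CPM in knockout TAM-MG (-0.72 ± 0.26, edgeR adjusted p = 0.552), and Rpe, an epimerase of the pentose phosphate pathway, was lower as well (-1.32 ± 0.60). P4ha2 and Pgam2 had no counts in the controls and counts in knockout libraries 54 and 63 but not 65.

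Between TAM-MG and bulk tumours, edgeR called 5 of 16 other glycolysis genes higher and 3 lower, 5 of 13 genes of pyruvate entry higher and 4 lower, 3 of 7 pentose phosphate genes higher, 2 of 12 genes of the HIF subunits and degradation higher and 3 lower, and 4 of 27 other HIF targets higher and 7 lower, where 52.9% of all genes were called. Slc2a5, a fructose carrier known in microglia, was 0.30 to 1.84 CPM in bulk tumours and 546, 154, 590, 104 and 703 CPM in TAM-MG (9.04 ± 0.67, edgeR adjusted p = 3.41e-06). Epas1, which encodes HIF-2α, was 45.0 to 100 CPM in bulk tumours and had 0, 0.577, 8.64, 10.4 and 13.5 CPM in TAM-MG (-5.52 ± 0.74, edgeR adjusted p = 0.000157), where both control libraries were below all knockout libraries. Plod1, a collagen lysyl hydroxylase (2.81 ± 0.26), and Taldo1, transaldolase (1.89 ± 0.32), were higher in TAM-MG. Pcx was called lower, but on the same scale it had 0, 0, 18.1, 6.95 and 25.5 CPM in TAM-MG and 6.14 to 40.1 CPM in bulk tumours, so that the knockout libraries overlapped the tumours and the call rests on the 2 control libraries at 0.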

How the data were processed

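RNA-seq libraries (SmartSeq2 and Nextera XT, 75-base paired-end reads) came from 6 bulk tumours and 5 TAM-MG sorts. The authors deposited raw gene counts made with STAR on GRCm38, and TPM values made with Salmon. The bulk TPM were typed as TPM, and the deposited TAM-MG TPM as a signal, because that table ends in an unnamed row of totals. That 1 row was left out of the TAM-MG counts and TPM, and 0 columns of per-sample values were unused. The versions of STAR and Salmon and the strand setting are not given in the sources used here. Of 50686 gene IDs, 50376 (99.4%) had a symbol in the reference table. Bulk TPM were listed for 12719 genes and TAM-MG TPM for 34839.

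Counts were tested with edgeR 4.0.16 (R 4.3.3), by the quasi-likelihood test with TMM scaling after filterByExpr (minimum count 10, minimum total 15), separately for bulk tumours, TAM-MG and all 11 libraries together. The joint fit gave the difference between sample types, averaged over genotypes, and that between genotype effects. Calls required a 1.5-fold change and a p under 0.05 after Benjamini-Hochberg adjustment over all genes tested. CPM are on the TMM scale, computed within bulk tumours and within TAM-MG, or over all 11 libraries for marker sums and comparisons of sample types. The likelihood ratio test, DESeq2 1.42.0 and limma 3.58.1 on log2(TPM + 1) were alternatives, and the scripts were tested on simulated data. Copies were sought with BLAST+ 2.17.0, and motifs and intervals were computed in Python 3.11.15 with SciPy 1.17.1. Replicates are separately numbered samples, and p-values measure the spread between these samples only. Named genes are all members, Rheb and, of each other pathway list, the gene with the smallest unadjusted p in each comparison. The members and the lists were chosen with earlier results of these data known.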

Additional observations from a re-analysis of the deposited data

Results flagged for a closer look

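For 2 genes the effect of Rheb1 deletion differed between TAM-MG and bulk tumours by a test of that difference. The test used the joint fit, which estimates the spread of each gene over fixed tissue and sorted cells together. In the fit of TAM-MG alone, the genotype effect had an adjusted p of 0.502 for Hk1 and 0.502 for Pcx in edgeR's quasi-likelihood test. For Hk1 the genotype effect was 8.345 higher on the log2 scale in TAM-MG (SE 1.43, edgeR adjusted p = 0.047), from 0 and 1 counts in Rheb1 fl/fl and 104, 97 and 489 counts in Rheb1 Δ/Δ TAM-MG. For Pcx, pyruvate carboxylase, it was 11.25 higher (SE 1.83, edgeR adjusted p = 0.047), from no counts in both Rheb1 fl/fl libraries and 324, 142 and 497 counts in Rheb1 Δ/Δ TAM-MG. In TPM the same controls were at 1.07 and 1.92 and the knockout libraries at 11.85, 5.10 and 11.5. Both sizes depend on the prior count, and for Hk1 the adjusted p was at or over 0.05 in 8 of the 11 fits that left out 1 library. For Pcx it was so in 9 of the 11, with differences from 10.73 to 11.83 and adjusted p-values from 0.039 to 0.146. With 2 or 3 libraries per group, no library could be tested as standing apart from its group.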

How the results depend on the processing

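No paired analysis was possible because the groups compared share no replicate numbers. Counts of calls depended on the test. In bulk tumours 0 genes were called, against 383 with the likelihood ratio test, 474 with DESeq2, 102 with no filter on low counts and 62 where every library had to hold 10 counts. On the TPM settings 1, 1 and 1 gene was called. The range was 0 to 8 when 1 library was left out. In TAM-MG 0 genes were called, against 245 with the likelihood ratio test and 477 with DESeq2, which called 1 and 1 member, and the median of the members ran from -0.44 without knockout library 54 to 0.11 without control library 78. Between sample types 11283 genes were called, against 4571 where every library held 10 counts, 7343 on TPM, 6403 in WT libraries only, where 9 members were called in place of 18, and 6789 in KO libraries only. The median of the members, 0.58, was 0.015 without TMM and -0.40 on TPM, and ran from -0.061 without TAM-MG knockout library 54 to 0.66 when 1 library was left out. For all genes, the median was computed in the main fits only. The genotype effect differed between the experiments for 48 genes, against 835 with the likelihood ratio test, 1206 with DESeq2, 76 with no filter and 3 under the 10-count minimum, which left 0 members, and from 1 (without bulk control 35) to 361 (without TAM-MG control 78) when 1 library was left out, with 0 to 3 members and a median of 0.16 (without TAM-MG knockout library 54) to 1.22.

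Of the genes named, none that was called between sample types on counts turned its direction except on TPM, and 18 alternative values no longer passed. The log2 differences that turned sign in bulk tumours were, without TMM, Slc2a1 (-0.055), Gapdh (-0.052) and Pkm (-0.0015), on log2(TPM + 0.1), Slc2a1 (-0.24), Hk1 (-0.12), Tpi1 (-0.0035), Gapdh (-0.16), Pkm (-0.15), Hif1a (1.61), Bnip3 (0.11), Ndrg1 (-0.067) and Ankrd37 (0.68), on log2(TPM + 1), Slc2a1 (-0.24), Hk1 (-0.11), Tpi1 (-0.0035), Gapdh (-0.16), Pkm (-0.15), Hif1a (1.15), Bnip3 (0.11), Ndrg1 (-0.047) and Ankrd37 (0.59), and without a filter on low TPM, Slc2a1 (-0.24), Hk1 (-0.11), Tpi1 (-0.0035), Gapdh (-0.16), Pkm (-0.15), Hif1a (1.15), Bnip3 (0.11), Ndrg1 (-0.047) and Ankrd37 (0.59). In TAM-MG they were Eno2 (1.25) and Car9 (-1.32) on log2(TPM + 0.1), Eno2 (0.28) and Car9 (-0.33) on log2(TPM + 1) and Eno2 (0.28), Vegfa (0.011) and Car9 (-0.33) without the filter. Between sample types they were Tpi1 (-0.13) with DESeq2, Tpi1 (-0.20) under the 10-count minimum, Slc16a3 (0.75), Gpi1 (-0.18) and Tpi1 (-0.36) in KO libraries only, Slc2a1 (-0.054), Slc16a1 (-0.13), Egln3 (1.76) and Ankrd37 (-0.78) in WT libraries only, Slc2a1 (-0.25), Slc16a1 (-0.14), Gpi1 (-0.32), Tpi1 (-0.54), Gapdh (-0.27) and Ankrd37 (-0.18) without TMM, and Slc2a1 (-0.90), Gpi1 (-0.32), Aldoa (-0.45), Tpi1 (-0.94), Gapdh (-3.73), Pgk1 (-0.78), Pgam1 (-1.49), Eno1 (-0.0045), Pkm (-1.08), Hif1a (0.94), Adm (-0.26), Car9 (-0.35) and Ankrd37 (-1.09) on log2(TPM + 1). Leaving out 1 library also turned the sign, with these lowest and highest values, of Slc2a1 (-0.072 to 0.17), Hk1 (-0.16 to 0.45), Gapdh (-0.21 to 0.31), Pgam1 (-2.84 to 0.14), Adm (-2.09 to 0.40), Slc16a3 (-1.60 to 0.25), Ankrd37 (-0.82 to 0.32), Pgk1 (-0.15 to 0.62), Pkm (-0.13 to 0.37), Egln3 (-2.54 to 1.02), Eno2 (-0.11 to 0.47) and Ndrg1 (-0.63 to 0.84) in bulk tumours, of Hk2 (-0.18 to 0.90), Pfkl (-0.057 to 1.0), Slc16a1 (-0.29 to 0.22), Pfkp (-1.05 to 0.26), Aldoa (-0.63 to 0.29), Pgam1 (-0.58 to 0.11), Eno2 (-1.70 to 9.38), Pkm (-1.46 to 0.051), Ldhb (-0.58 to 0.017), Vegfa (-1.37 to 7.03), Adm (-0.69 to 10.03), Car9 (-2.23 to 0.91), Bnip3 (-0.97 to 0.033), Slc2a1 (-0.69 to 0.92), Hk3 (-0.46 to 0.38) and P4ha1 (-0.080 to 0.16) in TAM-MG, and of Tpi1 (-0.46 to 0.013), Slc16a3 (-1.64 to 0.17), Adm (-4.39 to 1.56), Gpi1 (-0.063 to 0.23), Ankrd37 (-2.05 to 0.79), Slc2a1 (-0.45 to 0.33), Gapdh (-0.14 to 0.30), Pkm (-0.061 to 0.68) and Car9 (-0.53 to 1.12) between sample types. The cause of these changes was not tested.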
